A study of Mus musculus with 147 samples.

Results

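The endothelial genes *Pecam1*, *Cdh5*, *Kdr*, *Emcn*, *Flt1*, *Tek*, *Tie1*, *Ehd3*, *Plvap* and *Eng* were followed through every well of a single-cell RNA-Seq experiment on renin cells, to see which wells held several of them and which of them occurred in single mural cells. They were found by symbol, and all 10 are among the 35438 genes of both count tables. Cells were sorted by YFP from the kidney cortex of adult C57BL/6 mice of both sexes, captured in the Fluidigm C1 System and amplified with SMART-Seq v4. The 51 WT renin cells came from *Ren1c+/+ Ren1c-YFP* mice (4 mice pooled, 1 capture), and the 96 *Reninnull* cells came from *Ren1c-/- Ren1c-YFP* mice, called *Ren1c-KO* (12 mice, 4 captures), in which both copies of the renin gene are deleted. YFP in both is a transgene driven by *Ren1c* regulatory sequence, which reports where that sequence is active. Saline injections after birth were part of the rearing of mice carrying the deletion. No mouse or capture is named per cell, so each genotype is 1 sample, wells are not replicates, and no test between genotypes was made. Effects of genotype cannot be told apart from those of capture, library or the saline injections. Wells had been inspected by eye for single cells, and doublets were not called here. Wells are named WT or null with their number in the order of deposit.

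Endothelial cells line every vessel, and renin cells belong to the mural cells, which wrap the vessel from outside and include smooth muscle cells and pericytes. The endothelium is held together by cadherin and PECAM contacts, senses VEGF and angiopoietins that mural and epithelial cells release, and in the kidney forms the fenestrated capillaries of the glomerulus next to the juxtaglomerular renin cells. A mural cell and an endothelial cell thus lie against each other in the afferent arteriole, on either side of a basement membrane.

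The labelled cell type was checked first. *Ren1*, which encodes renin, was counted in all 51 WT wells, at 563 to 313965 counts per 1000000 counts of the well (CPM), with a median of 21402 CPM. In the *Reninnull* wells it came to 54 counts in all and at most 12.5 CPM in a well. *Akr1b7*, an aldo-keto reductase that marks renin cells, had a median of 253.8 CPM in WT and 375.5 CPM in *Reninnull* wells. *Rgs5*, a regulator of G protein signalling abundant in pericytes and smooth muscle, had a median of 552.5 and 6002 CPM. Of all wells of both genotypes, 118 were mural wells, holding at least 4 of 8 mural genes (*Acta2*, *Tagln*, *Myh11*, *Pdgfrb*, *Rgs5*, *Notch3*, *Mcam*, *Mylk*), which is 41 of the WT and 77 of the *Reninnull* wells. A well is said to hold a gene at 10 or more counts and 10 or more CPM.

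Depth differed widely. WT wells had 26401 to 17124854 counts with a median of 1525972, and *Reninnull* wells 3628 to 14505243 with a median of 4107950. Mitochondrial transcripts took a median of 60.4% of the counts in WT wells and 12.4% in *Reninnull* wells, which leaves fewer counts for all other genes in WT. The *Reninnull* wells were sequenced as libraries YFP1 and YFP2 of 48 wells each. In 4 pairs of *Reninnull* wells the profiles were near-identical (Pearson r of log2(CPM + 1) across genes of 0.970 to 0.987, against 0.894 for the next pair), and none of these 8 wells held any of the endothelial genes. The pairs null 46 and null 94, null 45 and null 93, and null 47 and null 95 each join a YFP1 well to a YFP2 well. The pair null 48 and null 96 lies within YFP2. Why these wells are alike was not tested.

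The upstream sequences of *Emcn*, *Eng* and *Flt1* are shown, genes that recur in the wells that held several endothelial genes. They are also the windows with most matches of the letters marked below. *Ehd3* was held in every such well, and its window, with 0 matches, is not printed. Each line gives the 250 bases before the RefSeq start on GRCm38.p6, 5′ to 3′ on the strand of the gene. These are chr3:137340828-137341077 on the plus strand for *Emcn*, chr2:32646345-32646594 on the plus strand for *Eng* and chr5:147726012-147726261 on the minus strand for *Flt1*. Capitals mark AGGAAG and its complement CTTCCT, a core read by ETS factors, the family to which the endothelial regulators *Erg* and *Fli1* belong.
Emcn: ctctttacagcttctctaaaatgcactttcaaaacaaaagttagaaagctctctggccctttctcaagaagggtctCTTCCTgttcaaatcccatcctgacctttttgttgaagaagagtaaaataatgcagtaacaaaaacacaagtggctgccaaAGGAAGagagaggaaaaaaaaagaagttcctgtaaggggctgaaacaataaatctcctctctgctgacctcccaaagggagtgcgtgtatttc
Eng: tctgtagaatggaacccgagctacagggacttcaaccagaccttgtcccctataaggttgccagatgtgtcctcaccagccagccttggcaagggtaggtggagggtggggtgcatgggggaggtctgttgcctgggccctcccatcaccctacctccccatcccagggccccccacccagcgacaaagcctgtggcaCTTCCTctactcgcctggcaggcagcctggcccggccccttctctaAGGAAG
Flt1: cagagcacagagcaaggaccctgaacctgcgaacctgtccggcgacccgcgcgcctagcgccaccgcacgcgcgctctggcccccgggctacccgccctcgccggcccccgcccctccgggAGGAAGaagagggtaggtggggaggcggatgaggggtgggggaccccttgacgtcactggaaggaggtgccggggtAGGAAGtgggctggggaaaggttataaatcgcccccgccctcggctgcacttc
RefSeq windows were matched for 7 of the 10 genes, namely *Kdr*, *Emcn*, *Flt1*, *Tek*, *Tie1*, *Ehd3* and *Eng*. The letters occurred on either strand in 4 of these 7, with 2 matches each in *Emcn*, *Eng* and *Flt1*, 1 in *Tie1* and 0 in *Kdr*, *Tek* and *Ehd3*, and in 29.5% of 32851 windows of the same length. A match describes these letters and is not a binding site.

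At the limit of 10 counts and 10 CPM, most wells held none of the endothelial genes. None was held in 34 of 51 WT wells and in 74 of 96 *Reninnull* wells. At least 1 was held in 17 WT wells (33.3%, exact Clopper-Pearson 95% interval 20.8 to 47.9) and 22 *Reninnull* wells (22.9%, 15.0 to 32.6). Without *Pecam1* among the genes, 8 WT and 20 *Reninnull* wells held at least 1, and the WT share was then the lower. At a limit of 1 count, 51 WT and 88 *Reninnull* wells did so. Such intervals take wells as independent draws, although wells are not replicates, and they do not cover the spread between mice or captures. Intervals on counts cover counting error at most. The chemistry has no molecular identifiers and PCR copies of a molecule count more than once, so these may be too narrow even for that. Of the 10 genes, 7 were held in at least 1 WT well and all 10 in at least 1 *Reninnull* well, where 46.9% and 64.7% of the 22953 genes with any count were so held. The wells that held at least 1 were deeper than the others in the *Reninnull* group, with medians of 6258040 and 2083800 counts, and the part of depth in this was not tested.

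Wells with 3 or more of the genes were rare. There was 1 in WT (1.96%, 0.0496 to 10.4), which is WT 43, and there were 5 among *Reninnull* wells (5.21%, 1.71 to 11.7), of which null 35 and null 39 were in YFP1 and null 67, null 83 and null 87 in YFP2. All but one of these 6 wells held exactly 3 genes, and null 83 held 9. No well held 4 to 8. Just below the limit, 3 WT and 4 *Reninnull* wells held 2 genes. All 6 wells were also mural wells, as were 80.3% of all wells.

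**Figure D1:**
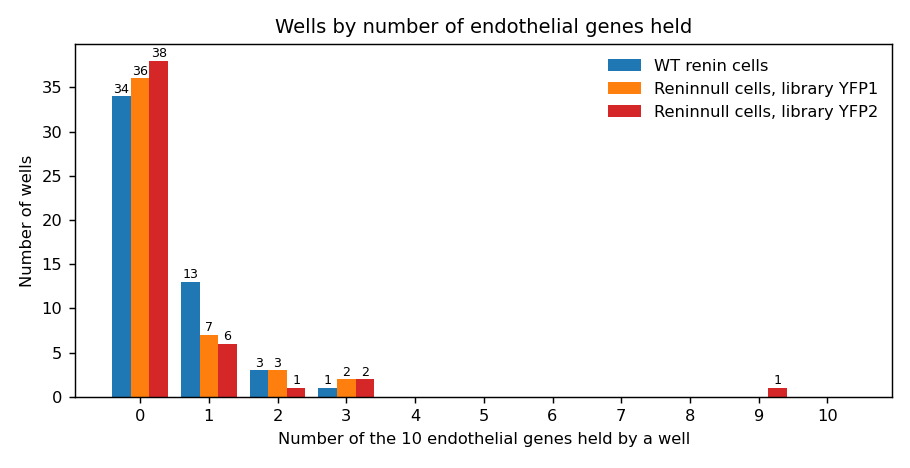
Bars give the number of wells (vertical axis) by the number of the 10 endothelial genes held (horizontal axis), for WT renin cells and for the YFP1 and YFP2 libraries of Reninnull cells. Most wells stand at 0, and the single well at 9 is null 83.

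The well null 83 held endothelial and mural genes together. It held *Emcn*, the sialomucin endomucin of capillary and venous endothelium, at 6140 CPM, which made it the 8th most abundant gene of the well, and *Ehd3*, an endocytic recycling protein of glomerular endothelium, at 1327 CPM. The VEGF receptors *Kdr* and *Flt1* stood at 980 and 383 CPM, the adhesion molecules *Pecam1* and *Cdh5* at 638 and 474 CPM, and the angiopoietin receptor *Tek* and its partner *Tie1* at 31.0 and 43.4 CPM. *Eng*, the TGF-beta and BMP co-receptor endoglin, stood at 40.1 CPM, and *Plvap*, the protein of the diaphragms that close fenestrae, had no count. These values chose the well and are a description.

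Other endothelial genes, which had no part in picking the wells, were also held in null 83. It held 10 of 16 further pan-endothelial genes, summing to 4066 CPM, where no other *Reninnull* well held more than 4 and no WT well more than 3, with a median of 0 in both. By summed level it was not the highest, since null 14 reached 7701 CPM with 1 gene of the list held. The highest in null 83 were *Ptprb*, the vascular endothelial phosphatase VE-PTP, at 1509 CPM, *Cd93*, a cell adhesion receptor, at 695 CPM, and *Egfl7*, a matrix factor secreted by endothelium, at 617 CPM. Not all of the list was there, since *Cldn5*, *Robo4* and *Clec14a* were at 0. Of 10 endothelial transcription factors 6 were held, led by *Ets1* at 1129, *Klf2* at 557 and *Fli1* at 460 CPM, with *Erg* at 30.3 CPM, and they summed to 2546 CPM. Other *Reninnull* wells held up to 5 of them with sums of up to 5474 CPM. Of the subtype lists, 3 of 8 capillary and venous genes were held (*Nrp1* at 1721 CPM highest), 1 of 8 arterial genes (*Efnb2* at 711.6 CPM) and 1 of 4 lymphatic genes (*Flt4* at 150 CPM). Other wells reached as many or more, up to 4 capillary and venous genes in a WT well, 3 arterial genes in wells of either genotype and 1 lymphatic gene. The well held 16.9% of all 22953 detected genes.

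Mural genes were held in null 83 as well. It held 6 of the 8 mural genes, *Rgs5* at 5962, *Tagln* at 1268, *Myh11* at 1158, *Acta2* at 697, *Mylk* at 292 and *Notch3* at 73.1 CPM, while *Pdgfrb* at 0.138 and *Mcam* at 1.24 CPM were not held. *Akr1b7* reached 330 CPM, the YFP transgene at 12.9 CPM and *Ren1* at 0. Its 7262658 counts were spread over 9787 genes, more than in all but 4 other *Reninnull* wells. It held no marker of 7 for proximal tubule, of 4 for the loop and distal tubule, of 4 for collecting duct, of 6 for macrophages or of 3 for red cells. Of the podocyte genes it held *Synpo* at 342 and *Podxl*, which endothelium also expresses, at 178 CPM, with *Nphs1* at 1.51 CPM. It also held 2 of 5 fibroblast genes (*Col1a2* at 86.2 CPM highest) and 1 of 3 mesangial genes (*Gata3* at 111 CPM). Whether the well had received more than 1 cell was not tested.

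The other 5 wells held the endothelial genes in smaller and different sets, and *Ehd3* was in each of them. WT 43 held *Ehd3* at 1274, *Emcn* at 284 and *Flt1* at 67.4 CPM. Renin cell genes were high in it, with *Ren1* at 250747 CPM as its top gene, *Akr1b7* at 7165, YFP at 936 and *Rgs5* at 9697 CPM, and it held 1 of the 16 pan-endothelial genes (*Esam*, 36.1 CPM). *Emcn* and *Ehd3* transcripts were thus counted in a well rich in *Ren1*. *Cdh5* and *Tek* had no count there, but they had none in any WT well. Whether WT 43 had received more than 1 cell was not tested. WT 43 was the deepest well and had the highest number of renin counts, 4294010. By CPM it was not the highest, since *Ren1* reached 313965 CPM in WT 35.

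In null 67, *Eng* reached 1193 CPM, its highest level in any well, with *Flt1* at 47.9 and *Ehd3* at 15.3 CPM, and the well had 11410 genes with a count, *Rgs5* at 19758 and YFP at 673 CPM. In null 35, *Eng* was at 485, *Ehd3* at 34.6 and *Flt1* at 15.8 CPM, beside *Rgs5* at 23761 CPM and *Cd93* at 1641 CPM. In null 87, *Emcn* was at 1623, *Ehd3* at 373 and *Eng* at 10.3 CPM. Here other cell types moved with the endothelial genes, since null 87 held the podocyte genes *Podxl* at 928, *Wt1* at 221 and *Synpo* at 61.3 CPM, beside *Rgs5* at 6618 CPM, and their part in its endothelial counts was not tested. In null 39, *Ehd3* was at 89.4, *Plvap* at 37.5 and *Eng* at 29.0 CPM. It met the mural limit with all 8 genes at low levels, summing to 685 CPM, with *Akr1b7* at 0.771 and *Ren1* at 0. It also held all 3 mesangial genes, *Gata3* at 1281, *Itga8* at 273.2 and *Pdgfrb* at 29.9 CPM, and their part in its label was not tested. Each of these 4 wells held 2 of the 16 further pan-endothelial genes.

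**Figure D2:**
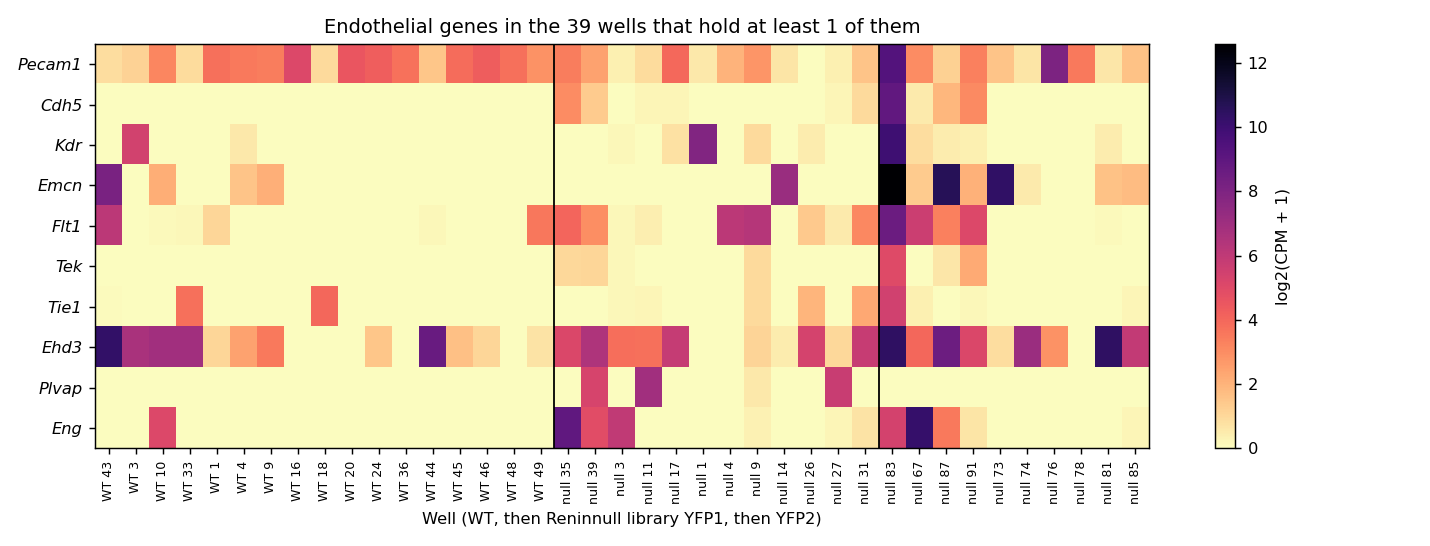
Each column is 1 of the 39 wells that held at least 1 of the 10 endothelial genes, in blocks for WT and for Reninnull libraries YFP1 and YFP2, each row is a gene, and the colour gives log2(CPM + 1). The column null 83 is dark for every gene but Plvap, the Ehd3 row is dark in wells of all blocks, and the Pecam1 row is faint across the WT block.

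Single mural wells, meaning mural wells that held fewer than 3 of the genes, numbered 112 (76.2% of all wells), with 40 in WT and 72 in *Reninnull* cells. Of these, 29 held at least 1 endothelial gene (25.9%, 18.1 to 35.0), 14 in WT and 15 in *Reninnull* cells, and 7 of the 29 held 2. The class is set by mural genes and few endothelial genes alone, and other markers occur in it. The median single mural well held 0 of 7 proximal tubule and 0 of 3 red cell genes, but *Reninnull* wells of the class held up to all 7 and all 3, with sums of up to 9520 and 12693 CPM. The median *Reninnull* well of the class held 1 of 5 podocyte and 1 of 5 fibroblast genes. The most held were 5 and 3, with sums of up to 12660.5 and 4550 CPM. Both medians were 0 in WT. Of the 10 genes 8 occurred in at least 1 single mural well, and 62.6% of all detected genes did. *Cdh5* and *Tek* did not, and both were held in null 83 alone. In comparison, 67.4% of detected genes were held in at least 1 well of any kind. *Kdr*, *Tie1* and *Plvap* were each held in 3 wells, a number reached by 49.8% of detected genes, *Emcn* in 5 (40.3%), *Eng* in 7 (33.4%) and *Flt1* in 8 (30.5%).

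*Ehd3* was the member found in most single mural wells. It was held in 20 wells, every one a mural well, and 14 of the 20 were single mural wells, 5 in WT and 9 in *Reninnull* cells. Among all detected genes, 12.6% were held in 20 wells or more. Its level in these 14 wells ran from 10.5 CPM in WT 9 to 1333 CPM in null 81, with a median of 57.6 CPM, and 6 of them were at or above 100 CPM. The top value was level with the 1327 CPM of null 83, yet null 81 held no other member, and its *Rgs5* was at 33830 CPM. In WT 44, *Ehd3* reached 414 CPM beside *Rgs5* at 27659 CPM, and again no other member was held. Of the 14 wells, 7 held *Ehd3* alone, and the other 7 are all the single mural wells in which 2 members were held.

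The wells with *Ehd3* were the deeper and more strongly mural ones. In WT, the 6 mural wells holding it had medians of 10470900 counts, 5507 CPM of *Acta2* and 12138 CPM of *Rgs5*, against 1362240 counts, 156 CPM and 553 CPM in the 35 that did not. In *Reninnull* cells the 14 holding it had medians of 6725610 counts, 2906 CPM and 18707 CPM, against 3670440 counts, 1290 CPM and 6779 CPM in the other 63. Mitochondrial shares moved with it, at a median of 8.35% against 54.1% in WT and 4.38% against 13.9% in *Reninnull* wells. *Ren1* was lower in the WT mural wells holding *Ehd3*, at a median of 7970 CPM (674 to 250747) against 35105 CPM. *Akr1b7* was higher in them, at a median of 955 against 387 CPM, and in *Reninnull* mural wells at 1132 against 467 CPM. The part of depth and RNA quality in this was not tested.

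*Pecam1*, the platelet and endothelial cell adhesion molecule, was held in 13 wells, a number reached by 20.3% of detected genes, 11 of them single mural wells (8 WT, 3 *Reninnull*), but at low counts. The 11 had 11 to 85 counts, a median of 13.7 CPM, and 1 was above 100 CPM, null 76, with 42 counts in a well of 160022. The gene had at least 1 count in 50 of 51 WT wells and 86 of 96 *Reninnull* wells, and its count hardly followed the depth of the well. In the shallower and the deeper WT wells its median was 8 and 14 counts, where median depth was 915523 and 7116420. In YFP2 the medians were 8 and 8.5 counts at depths of 811333 and 7262160, and in YFP1 they were 3 and 6 at 527687 and 6628480. A shallow well therefore passed the CPM limit on counts that a deep well also had, and the mural WT wells holding *Pecam1* had a median mitochondrial share of 62.4%. Only 1 well outside null 83 held it with another member, null 17 with *Ehd3* at 55.6 CPM.

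The remaining members occurred in 1 or 2 single mural wells each. *Emcn* reached 1293 CPM in null 73, a well with YFP at 5096 and *Akr1b7* at 6235 CPM, and at 140 CPM in null 14. *Kdr* was at 237 CPM in null 1 and at 41.8 CPM in WT 3, and *Flt1* at 69.7 CPM in null 4 and 32.9 CPM in null 91. *Tie1* was seen in WT 18 and WT 33, at 15.1 and 12.5 CPM. *Eng* was at 61.4 CPM in null 3 and 33.3 CPM in WT 10, and *Plvap* at 119 CPM in null 11. Of these, the counts behind *Emcn* in null 73, 9635, and *Kdr* in null 1, 3437, were the highest. Wells outside the mural class added *Flt1* in WT 49 and null 9, *Plvap* in null 27 and *Pecam1* in WT 24.

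Among pairs of members, overlap with *Ehd3* was common. All 7 wells with *Eng* also held *Ehd3*, which is 35.0% of the 20 *Ehd3* wells, and 6 of these pairings remain when null 83 is set aside. But 5 of the 7 were wells holding several, where members occur together by definition. *Flt1* and *Ehd3* were together in 5 wells, 62.5% of the *Flt1* wells and 25.0% of the *Ehd3* wells, and *Emcn* and *Ehd3* in 3. *Kdr*, *Tie1* and *Plvap* each shared 2 of their 3 wells with *Ehd3*, and *Pecam1* shared 2 of 13. The share over all gene pairs was not computed. The *Eng* gene shares its last exonic bases with *Fpgs* on the opposite strand, and the library kit keeps no strand, so a part of its counts may belong there.

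**Figure D3:**
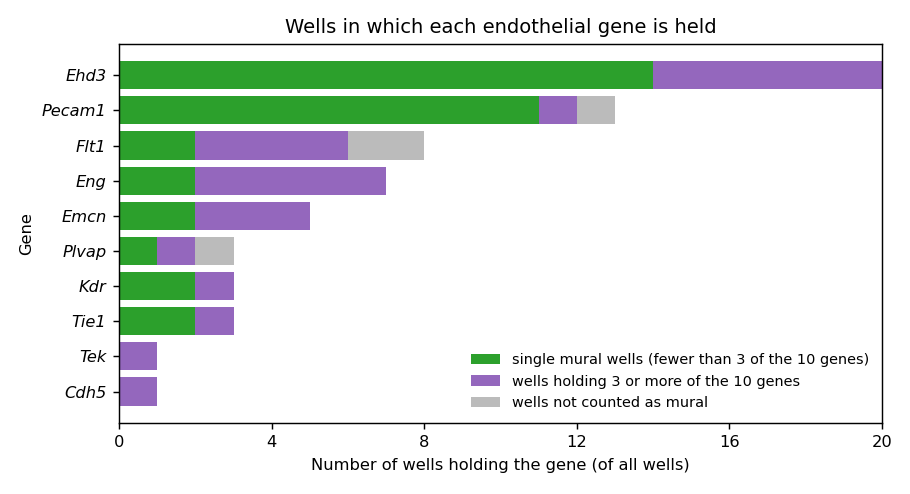
For each of the 10 endothelial genes the bar gives the number of wells that held it, split into single mural wells, wells with 3 or more of the genes, and wells not counted as mural. Ehd3 and Pecam1 lead with 14 and 11 single mural wells, and Cdh5 and Tek have none.

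**Figure D4:**
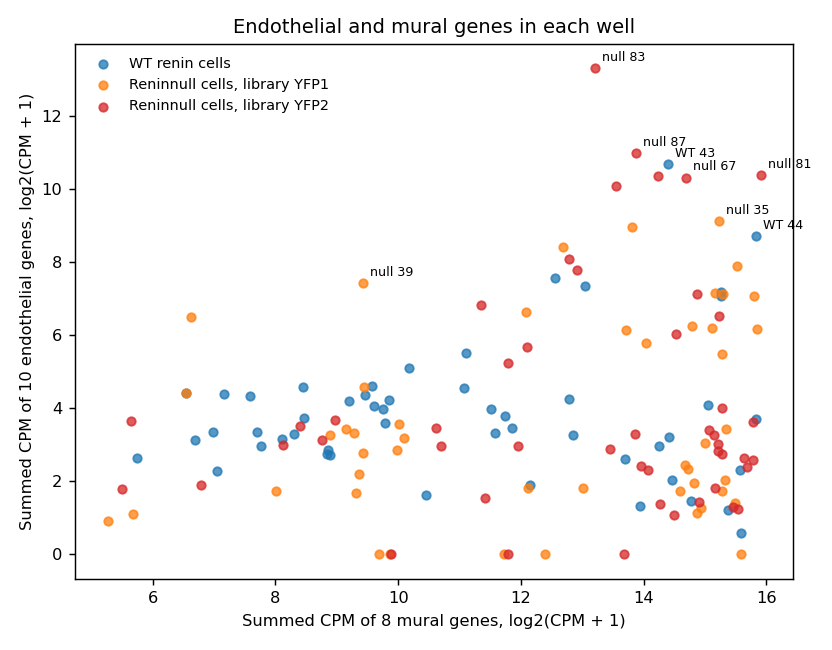
Each point is 1 well, with the summed CPM of the 8 mural genes on the horizontal axis and of the 10 endothelial genes on the vertical axis, both as log2(CPM + 1). The well null 83 lies highest at 10057 CPM of endothelial genes, null 81 and WT 44 lie far to the right, and null 39 lies to the left at 685 CPM of mural genes.

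In the summed counts of each genotype, 7 of the 10 genes had a log2 ratio (*Reninnull* over WT) of at least 1 and 0 of at most -1, where 52.4% and 18.5% of the 18720 genes with a ratio did so. The median over the 10 was 3.03 against 1.17 for all genes, where a WT sum of 0 was replaced by 3 counts. Without null 83 the numbers were 5 of at least 1 and 2 of at most -1, with a median of 1.40, whereas leaving out the highest well of both genotypes for each gene gave a median of 4.34. With those wells left out, the ratio was 8.69 for *Kdr*, 9.86 for *Eng*, 7.09 for *Emcn*, 4.09 for *Flt1*, -0.05 for *Ehd3*, -0.20 for *Pecam1* and -2.00 for *Tie1*, so single wells on either side set the size of these ratios and, for *Pecam1*, the sign. For *Flt1* the sign turned when null 83 alone was left out, from 0.75 to -0.91. Markers of some other cell types were also higher in *Reninnull* wells, with ratios of at least 1 for 7 of 7 proximal tubule genes (median 3.54), 4 of 4 of the loop and distal tubule (9.85), 4 of 5 of fibroblasts (4.39) and 3 of 3 of red cells (11.3). So were 5 of 5 podocyte genes (7.15) and 5 of 6 macrophage genes (3.22). Others were not, with 2 of 4 collecting duct genes at least 1 and 2 at most -1 (median 0.31), 1 and 1 of 3 mesangial genes (0.41), and 0 and 2 of 8 mural genes (-0.30). The well null 83 held 67.1% to 96.01% of the *Reninnull* counts of *Pecam1*, *Cdh5*, *Kdr*, *Emcn*, *Flt1*, *Tek* and *Tie1*.

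Gene positions are those of GENCODE M21 on GRCm38. For the adhesion genes, *Pecam1* (chr11:106654217-106750628) had 660 counts (3.33 CPM) in WT, spread over wells at 0 to 152 CPM with a median of 6.77, and 5668 counts (14.2 CPM) in *Reninnull* cells, at 0 to 638 CPM with a median of 2.14. Its log2 ratio of 2.09 (exact 95% interval 1.97 to 2.21) turned to -0.34 without null 83 and to -0.58 in YFP1 alone. The wells overlapped, and the median well was lower in *Reninnull* cells. *Cdh5* (chr8:104101625-104144511), VE-cadherin of the adherens junction, had 0 counts in WT and 3585 counts (8.99 CPM) in *Reninnull* cells, at least 593-fold higher against a floor of 3 counts over the WT group (a log2 ratio of 9.21, and 4.59 without null 83), with a median well of 0 CPM and 96.01% of the counts in null 83.

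Among the receptors, *Kdr* (chr5:75932827-75978458), the main signalling receptor for VEGF, stood at 2.57 CPM in WT and 26.6 CPM in *Reninnull* cells, a log2 ratio of 3.37 (3.24 to 3.50) that was 1.79 without null 83, and 99.2% of its WT counts lay in WT 3. *Flt1* (chr5:147561604-147726011), the VEGF receptor that binds ligand tightly and signals weakly, stood at 6.01 and 10.1 CPM, a ratio of 0.75 (0.66 to 0.85) that was -0.91 without null 83, -0.93 in YFP1 and -0.09 with DESeq2 size factors, but 2.59 from the mean over wells of CPM, and 97.1% of its WT counts lay in WT 43. For both genes the median well of either genotype was at 0. *Tek* (chr4:94739289-94874976) had 0 counts in WT and 278 in *Reninnull* cells, at least 46.0-fold higher against a floor of 3 counts over the WT group (a log2 ratio of 5.52, and 3.16 without null 83), and *Tie1* (chr4:118471191-118490061) stood at 1.48 and 1.00 CPM, a ratio of -0.56 (-0.78 to -0.33) that was 0.03 in YFP2 alone, -1.87 in YFP1 alone and -2.76 without null 83. *Eng* (chr2:32646595-32682669) stood at 2.07 and 31.5 CPM, a ratio of 3.93 (3.79 to 4.08), with 99.5% of its WT counts in WT 10 and 68.9% of its *Reninnull* counts in null 67. Its ratio was 3.92 without null 83, and -0.61 without the wells holding several, which were chosen by these genes.

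Of the genes of capillary beds, *Emcn* (chr3:137341067-137432185) came to 24.9 CPM in WT and to 160.7 CPM in *Reninnull* cells, a log2 ratio of 2.69 (2.65 to 2.73). WT 43 gave 98.7% of its WT counts and null 83 gave 69.6% of its *Reninnull* counts, and the ratio was 0.9998 without null 83, just under the limit for a call, and -2.66 in YFP1 alone. *Ehd3* (chr17:73804134-73832094) stood at 147.8 and 75.7 CPM, a ratio of -0.97 (-0.99 to -0.94), with 74.6% of the WT counts in WT 43 and 48.9% of the *Reninnull* counts in null 81. Its ratio was -3.86 in YFP1 and -0.18 in YFP2, and at -1.50 without null 83 it passed the limit for a lower call. *Plvap* (chr8:71497765-71511752) had 0 counts in WT and 1273 in *Reninnull* cells, at least 211-fold higher, of which null 11 gave 52.6%, and YFP2 had 0.0276 CPM against 6.98 CPM in YFP1. In each case a few wells set the level. Scaling by TMM or DESeq2 size factors lowered all ratios together, the median of all genes being 0.47 with TMM factors and 0.33 with DESeq2 size factors. The mean over wells of CPM did not, since the median of the 10 genes rose to 3.99 while *Pecam1* fell to 1.44.

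**Figure D5:**
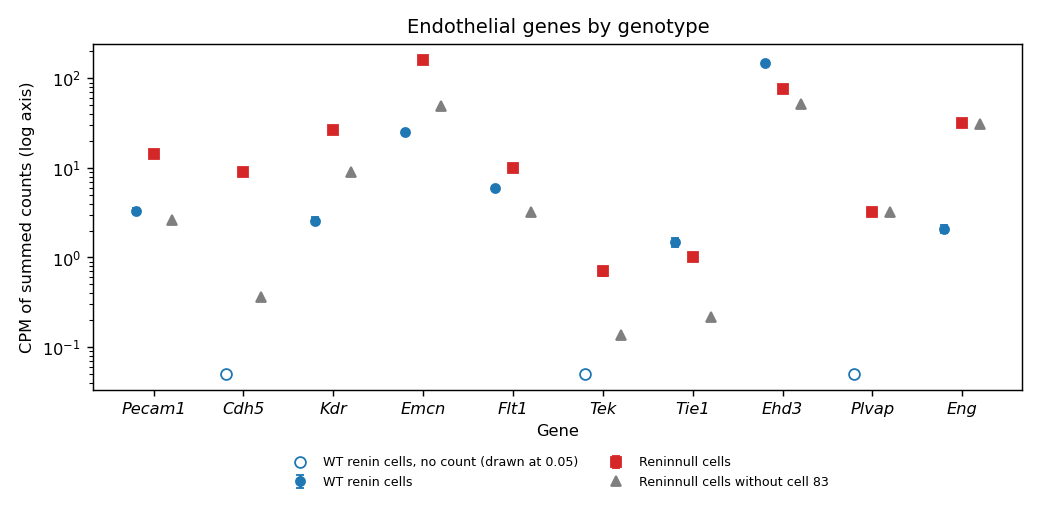
Points give the CPM of the summed counts of each gene (log axis) for WT renin cells, Reninnull cells and Reninnull cells without null 83, with exact Poisson 95% intervals for the first and the second that are mostly smaller than the points. Open circles mark no count in WT and are drawn at a nominal 0.05. Leaving out null 83 brings Pecam1 and Flt1 below WT, and Tie1 and Ehd3 are below WT either way.

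Per kilobase of exon, the order of the levels in WT was *Ehd3* at 22.5 CPM, *Emcn* at 4.61, *Pecam1* at 0.535, *Eng* at 0.511, *Flt1* at 0.445, *Tie1* at 0.300 and *Kdr* at 0.284, with *Cdh5*, *Tek* and *Plvap* at 0. The counting intervals of *Pecam1* and *Eng* overlap, as do those of *Eng* and *Flt1* and of *Tie1* and *Kdr*. In *Reninnull* cells the order was *Emcn* at 29.7 CPM, *Ehd3* at 11.5, *Eng* at 7.79, *Kdr* at 2.95, *Pecam1* at 2.28, *Cdh5* at 2.14, *Plvap* at 1.61, *Flt1* at 0.749, *Tie1* at 0.204 and *Tek* at 0.148, with no overlap between neighbours by counting error alone. Without null 83 the order was *Emcn* at 9.21 CPM, *Ehd3* at 8.00, *Eng* at 7.75, *Plvap* at 1.64, *Kdr* at 0.986, *Pecam1* at 0.423, *Flt1* at 0.237, *Cdh5* at 0.0869, *Tie1* at 0.04415 and *Tek* at 0.0287. With YFP1 and YFP2 summed, *Ehd3* and *Emcn* were the 2 highest members in both genotypes. But without WT 43 the WT level of *Emcn* was 0.0675 CPM and that of *Flt1* 0.0139 CPM, below *Pecam1*, *Eng*, *Tie1* and *Kdr*, while *Ehd3* at 6.27 CPM was still the highest. The order also differed by library. Before division by length, *Eng* and *Kdr* stood at 19.3 and 19.1 CPM in YFP1, above *Ehd3* at 10.2 and *Emcn* at 3.93 CPM. In YFP2 the same genes stood at 41.7, 32.9, 130.3 and 291.6 CPM, in that order.

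Of 12 ligands and partners of these receptors, 8 were held in a WT well and 9 in a *Reninnull* well, where 46.9% and 64.7% of detected genes were. Of the 10 with a ratio, 3 were at least 1 and 2 at most -1, against 52.4% and 18.5% of all genes, and their median was 0.40 against 1.17. *Angpt2*, the angiopoietin that can oppose TEK signalling, was held in 4 WT and 41 *Reninnull* wells, at 60.3 and 170.9 CPM (log2 ratio 1.503, 1.47 to 1.53). *Vegfa*, the ligand of *Kdr*, was held in 0 WT and 5 *Reninnull* wells, at 0.283 and 61.3 CPM, and null 75 gave 59.1% of the latter. *Vegfc* had 0 counts in WT, and null 85 held 99.5% of its *Reninnull* counts. *Vegfb* was lower in *Reninnull* cells (-2.64, -2.76 to -2.53), with 95.7% of its WT counts in WT 28. *Acvrl1*, the receptor that acts with endoglin, was lower too (-4.65, -5.39 to -3.99), with 249 counts in WT and 20 in *Reninnull* cells. *Bmpr2*, which pairs with it, was held in 8 WT and 25 *Reninnull* wells (-0.71, -0.73 to -0.69).

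Of the 9242 other genes held in at least 5 wells, the one whose log2(CPM + 1) followed the number of endothelial genes held most closely over all wells was *Ptprb* (Pearson r = 0.70, and 0.42 over the 146 others when null 83 is left out). It was followed by *Ctla2a* (0.66 and 0.41), *Adgrl4*, an adhesion receptor of endothelium (0.64 and 0.36), *Arap3*, a GTPase-activating protein (0.64 and 0.35), *Palmd* (0.63 and 0.42), *Srfbp1* (0.57 and 0.24), *Msh6* (0.55 and 0.35), *Sox1* (0.55 and 0.29), *Ptprj* (0.53 and 0.26) and *Prkca* (0.53 and 0.30). Wells share library and depth, and these coefficients are descriptions.

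Wells of a library that share an index with the well holding most of a gene were compared with those that share none, since reads can be assigned to a wrong index. *Emcn* in WT had 4865 counts in WT 43, and a count in 8 of 14 wells sharing an index with it (57.1%) against 1 of 36 that share none (2.78%), at a median of 1.5 and 0 counts. *Ehd3* in WT had a count in 11 of 14 against 21 of 36 wells. *Cdh5* in YFP2, with 3442 counts in null 83, had one in 2 of 14 against 8 of 31 wells, and *Pecam1* in 13 of 14 against 30 of 31. Low *Emcn* counts in WT were thus more frequent in wells sharing an index, and the limit of 10 counts leaves most of them out. In YFP2, *Emcn* had a count in 11 of 14 wells sharing an index with null 83 (78.6%) against 15 of 31 (48.4%), *Flt1* in 8 of 14 (57.1%) against 11 of 31 (35.5%), and *Ehd3*, set against null 81, in 12 of 14 (85.7%) against 18 of 31 (58.1%). The wells null 73, with 9635 counts of *Emcn*, and null 81, with 14750 of *Ehd3*, share 1 of their 2 indexes with null 83, which had 44590 and 9639 counts of these genes. So does null 87, with 8970 counts of *Emcn*, and it shares its other index with null 67, the well with most *Eng*. Wells of YFP2 that share no index with null 83 had at most 22 counts of *Emcn*. The part of index sharing in these counts was not tested.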

How the data were processed

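The authors trimmed reads with Trimmomatic, quantified transcripts with Salmon on the GRCm38/ENSEMBL annotation and used tximport (lengthScaledTPM) for gene totals. The submitters' processing notes name FastQC 0.11.5, Trimmomatic 0.39, Salmon 0.11.2, GRCm38.p6 and mm10. The deposited values are estimated counts per gene and well, not normalized for depth, and were rounded to whole numbers here. The scaling for transcript length can move counts of genes with several isoforms. No column of per-well values was left out.

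Counts were summed per genotype and scaled to CPM. Ratios have exact conditional 95% intervals, sums exact Poisson and shares exact Clopper-Pearson intervals. With 1 sample a group no p-value was computed, and a log2 ratio of at least 1 or at most -1 was the limit for a call. The method was tested on simulated data. The 10 genes and all marker lists were chosen with earlier results of these data known. Genes named are the 10, up to 3 leading genes of each list, every mural gene and *Ren1*, *Akr1b7* and YFP in named wells, the defining markers at or near 0, and the 10 genes whose level correlated most with the number held. Further genes of the ligand list and *Fpgs* were named after their values were seen. Alternatives were other limits, scalings (edgeR 4.0.16 TMM, DESeq2 1.42.0 size factors), well filters, thinning and single libraries. Leaving out null 83, leaving out *Pecam1* from the genes, correlations without null 83 and WT levels without WT 43 were added after seeing the data. Gene models are GENCODE M21, upstream windows RefSeq. Software was Python 3.11.15 (numpy 2.4.6, pandas 2.3.3, scipy 1.17.1, matplotlib 3.10.9) and R 4.3.3. Values of 1 marker gene are not reported here.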

Additional observations from a re-analysis of the deposited data

How the results depend on the processing

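With 1 sample a genotype, intervals on counts cover counting error at most, and intervals on shares take wells as independent draws. Shallow wells cannot show a gene at low level, and 2 *Reninnull* wells have discordant index labels. No paired analysis was possible because the labels give no replicate numbers that join the genotypes and no result comes from a test. The median log2 ratio of the 10 genes (3.03) was 3.99 from the mean over wells of CPM, 2.33 with TMM factors, 2.19 with DESeq2 size factors, 2.87 without mitochondrial counts, 4.34 without the highest well of each genotype for each gene, 1.16 in YFP1, 3.20 in YFP2, 3.14 with near-identical wells counted once, 2.18 without wells holding several, and 1.40 without null 83. Of single genes, *Pecam1* turned to -0.20 without the highest wells, -0.58 in YFP1, -0.56 without wells holding several and -0.34 without null 83, *Emcn* to -2.66 in YFP1, and *Eng* to -0.61 without wells holding several, which were chosen by these genes (5 of the 6 *Reninnull* wells with *Eng*). The sign of ratios under 1 in size also turned, for *Flt1* (0.75) to -0.91 without null 83, -0.93 in YFP1 and -0.09 with DESeq2 size factors, for *Tie1* (-0.56) to 0.03 in YFP2, and for *Ehd3* (-0.97) to 0.22 without wells holding several. Wells holding at least 1 (17 WT, 22 *Reninnull*) were 51 and 88 at a limit of 1 count, and 5 and 11 at 100 CPM. They were 28 and 34 after thinning, 6 and 19 with the well filter, and 8 and 20 without *Pecam1*. The number of wells holding several (1 WT, 5 *Reninnull*) was 20 and 53 at a limit of 1 count, 0 and 1 at 100 CPM, and 0 and 1 when several meant 5 or more genes. It was 2 in WT after thinning to 62000 counts, where 1 count passes the limit, and 3 in *Reninnull* cells without wells of over 9000 genes. Single mural wells with a gene (29 of 112) were 66 of 72 at a limit of 1 count, 15 of 76 at 100 CPM, 48 of 108 after thinning, 18 of 59 among the 15 WT and 57 *Reninnull* wells of at least 100000 counts, 1000 genes and at most 25% mitochondrial counts, and 19 of 112 without *Pecam1*. In these results the cause was not tested.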
